A study of Mus musculus with 87 samples.

Results

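Wt1, Osr1, Tcf21, Nr5a1, Star, Cyp11a1, Upk3b and Bnc1 are genes of the urogenital ridge, the adrenal and gonadal primordium and the mesothelium, and their RNA levels were followed through every library of a study of mouse embryos that lack a boundary between topologically associating domains (TADs). They are 8 of the 43346 Ensembl genes in the deposited tables, and all 8 had an entry there. The genes were chosen by name, partly because urogenital genes were lower in homozygous gut of line B4, so the B4 gut contrast was used to pick them. Their values in B4 gut are accordingly given as a description, with no test. All other comparisons were not used for the choice.

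RNA-seq was performed on 64 bulk tissue libraries from FVB embryos at embryonic day 11.5 (E11.5) in 7 lines, B2 to B8, each with the boundary of that name deleted by CRISPR/Cas9 in the zygote, so that every cell of a homozygous embryo lacked it. Each line was expanded from 1 founder, every mutant library was homozygous for the deletion, every control was a wild-type littermate, and no further allele or agent was used. In B2, 4 hearts and 6 lungs of each genotype were sequenced, and there were 2 libraries of each genotype for face and heart of B3 and B5, gut and midbrain of B4, face of B6 and B7, and forebrain and neural tube of B8. B6 and B7 also had 2 homozygous hearts each, which were compared with 8 wild-type hearts from the lines B2, B3 and B5. In these hearts a difference of genotype and a difference of line cannot be told apart. The labels do not say whether libraries of a group came from separate litters, so a p-value measures the spread between these libraries alone. In bulk tissue, fewer cells of a type and less RNA per cell cannot be told apart.

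The unit of level is CPM, a gene's count scaled to the TMM-adjusted size of its library, and levels of different genes are compared as TPM, which takes gene length into account. A gene was called when its adjusted p (edgeR's quasi-likelihood test, Benjamini-Hochberg over all genes tested) was under 0.05. The total count per library ran from 8.39 to 31.8 M with a median of 21.4 M. Among the B2 lungs, wild-type E5420-09 had the lowest total and its 10 most abundant genes took 90.1% of the counts, and wild-type E5420-07 had high levels of several members. The homozygous B5 heart A21 held 519 CPM of neuron markers, against 18.4 to 65.0 CPM in the other 19 hearts, and 6111 CPM of cardiomyocyte markers, the lowest of the 20. By Xist and the Y-linked genes, 37 libraries read as female, 24 as male and 3 as both at a limit of 5 CPM (A21, the wild-type B2 heart A59 and the homozygous B2 lung E5403-10). Tissues held their defining markers, with cardiomyocyte genes at a median sum of 15412 CPM in heart, neuron genes at 2726 CPM in midbrain and the lung mesenchyme gene Tbx4 at 128 ± 40.7 CPM in wild-type lung. Gut was not singled out by its epithelial markers, at a median sum of 168 CPM against 321 CPM in midbrain and 219 CPM in lung, and the gut libraries also held 4873 CPM of liver genes (median).

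The urogenital ridge forms from intermediate mesoderm and the overlying coelomic epithelium, and it gives rise to the kidneys, the gonads and the adrenal cortex. The mesothelium is the epithelial sheet that lines the body cavities and covers the viscera, including the heart, where it is called the epicardium. Wt1 and Osr1 encode zinc finger transcription factors needed for the kidney and gonad, and Wt1 also marks mesothelium and epicardium. Tcf21 encodes a bHLH factor of visceral mesenchyme in lung, kidney, spleen and epicardium. Nr5a1 (SF-1) is the nuclear receptor that directs the adrenal and gonadal primordium and controls steroidogenic genes. Star carries cholesterol into the mitochondrion and Cyp11a1 cleaves its side chain, the opening steps of steroid synthesis. Upk3b encodes a uroplakin of mesothelial cells, and Bnc1 (basonuclin 1) is a zinc finger protein of germ cells, keratinocytes and mesothelium.

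In GENCODE M21 (mm10), Wt1 (ENSMUSG00000016458.9) lies at chr2:105126529-105173616, Osr1 (ENSMUSG00000048387.7) at chr12:9570116-9581500 and Tcf21 (ENSMUSG00000045680.7) at chr10:22817281-22820174. Nr5a1 (ENSMUSG00000026751.10) lies at chr2:38692656-38714542, Star (ENSMUSG00000031574.7) at chr8:25806555-25815982 and Cyp11a1 (ENSMUSG00000032323.9) at chr9:58006411-58027023. Upk3b (ENSMUSG00000042985.6) lies at chr5:136038496-136046487 and Bnc1 (ENSMUSG00000025105.8) at chr7:81966672-81992292. None is a neighbour of the genes that flank B2, B4, B5, B6 or B8, and distances to B3 and B7 were not computed. Upk3b was 15.6 Mb from Lhx5 and 16.2 Mb from Tbx5, which flank B2, and 16.4 Mb from Tbx3 at B5. Tcf21 was 28.1 Mb from Sim1 at B4 and Osr1 24.4 Mb from Twist1 at B6. The antisense gene Wt1os overlaps Wt1, and because the strand setting of the counting is not given in the sources used here, reads of both cannot be told apart.

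RefSeq promoters (GRCm38.p6) were on hand for 4 of the 8 genes. They are shown because the tissue pattern of Tcf21 was close to those of Upk3b and Bnc1, while Cyp11a1 had another one. Each line holds the bases upstream of the start site, 5′ to 3′ on the gene's strand, and capitals mark a GATA match (AGATAA and AGATAG and TGATAA and TGATAG were searched on both strands). Upk3b is at chr5:136038246-136038495 on the plus strand, Tcf21 at chr10:22820175-22820393 on the minus strand, Bnc1 at chr7:81992300-81992549 on the minus strand and Cyp11a1 at chr9:57997774-57998023 on the plus strand. This RefSeq start of Cyp11a1 lies upstream of the start in GENCODE M21 at 58006411, and another RefSeq start at 58014952 is not shown.
Upk3b: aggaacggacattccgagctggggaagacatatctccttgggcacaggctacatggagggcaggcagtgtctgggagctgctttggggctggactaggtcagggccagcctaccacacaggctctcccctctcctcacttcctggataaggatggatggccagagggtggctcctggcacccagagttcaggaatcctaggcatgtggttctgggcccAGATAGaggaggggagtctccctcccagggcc
Tcf21: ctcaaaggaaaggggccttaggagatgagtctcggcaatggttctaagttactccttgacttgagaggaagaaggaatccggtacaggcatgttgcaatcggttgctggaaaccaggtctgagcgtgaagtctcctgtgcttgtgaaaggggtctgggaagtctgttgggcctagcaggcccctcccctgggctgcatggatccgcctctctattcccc
Bnc1: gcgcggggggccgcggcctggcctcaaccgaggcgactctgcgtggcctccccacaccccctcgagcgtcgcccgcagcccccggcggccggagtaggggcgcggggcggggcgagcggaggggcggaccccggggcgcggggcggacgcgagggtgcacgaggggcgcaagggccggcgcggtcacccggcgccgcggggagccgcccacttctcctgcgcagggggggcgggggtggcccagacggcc
Cyp11a1: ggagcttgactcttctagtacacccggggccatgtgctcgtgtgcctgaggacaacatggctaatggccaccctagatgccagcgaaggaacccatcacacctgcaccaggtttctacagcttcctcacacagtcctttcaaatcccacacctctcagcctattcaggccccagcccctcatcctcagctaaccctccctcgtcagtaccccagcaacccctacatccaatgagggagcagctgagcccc
The Upk3b window held 1 GATA match and the other 3 windows held none. In 250 upstream bases, 26.5% of 32851 promoters held at least 1. The Tcf21 window was shorter, at 219 bases, because annotated exon bases of the gene were left out. AAGGNCA, the site read by Nr5a1, was in none of the 4 windows and in 17.5% of all promoters. The Bnc1 window was 83.6% G and C with 39 CpG dinucleotides, and that of Upk3b 60.8% with 2. A match is a string of letters, and its absence says only that these letters are not in the window.

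Wt1, a regulator of kidney, gonad and mesothelium, was highest in gut, at 48.1 ± 12.8 CPM (SD, n = 4). The neural tube (31.3 ± 4.22, n = 4), the heart (29.3 ± 7.04, n = 20) and the lung (24.98 ± 4.57, n = 12) followed, with overlapping libraries. The face held 0.368 ± 0.255 CPM (n = 16), and midbrain and forebrain at most 0.113 CPM in any of 8 libraries. The lowest gut overlapped with heart and lung and lay just above the highest neural tube (37.0 against 36.9 CPM), and the lung stood above the face with no overlap of libraries.

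Osr1 had another order, with the lung at 92.9 ± 28 CPM (SD, n = 12) above all other tissues except for 1 heart. The face came next at 40.1 ± 7.95 CPM (n = 16), above most hearts. Neural tube (29.9 ± 11.2) and gut (29.3 ± 8.98) overlapped with the face. The 20 hearts ran from 1.97 to 77.1 CPM around a median of 13.1. On the deposited TPM scale face (35.3 ± 7.47) and lung (31.6 ± 8.47) changed places and overlapped, so the first rank of the lung depends on the scale.

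Tcf21 was highest in heart, at 57.1 ± 13.7 CPM (SD, n = 20), and in gut, at 38.1 ± 7.09 CPM (n = 4), with overlapping libraries and with gut first in TPM. Lung (21.2 ± 10.6), neural tube (6.36 ± 0.792) and face (1.5 ± 0.483) followed in ranges apart from each other, and only E5420-07 carried the lung into the range of gut. All 4 midbrain libraries had 0 counts and the 4 forebrains 0 to 2. Upk3b, the mesothelial uroplakin, reached 211 ± 47.0 CPM in heart, 62.9 ± 17.6 in lung and 54.1 ± 9.33 in gut. Lung and gut overlapped, and lung met heart only through E5420-07 and the heart A21. It was at 10.3 ± 1.03 CPM in neural tube and 0.576 ± 0.597 in face. Bnc1 was flatter, at 33.5 ± 2.99 CPM in gut, 30.6 ± 2.65 in lung, 18.9 ± 7.13 in heart and 18.2 ± 2.22 in neural tube. The face still held 11.4 ± 1.75 CPM of Bnc1 and the forebrain 1.197 ± 0.218.

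The steroidogenic members were low everywhere. Nr5a1 was at 5.03 ± 1.61 CPM in neural tube (SD, n = 4) and 0.937 ± 0.454 in face (n = 16), and in gut it spread from 0 to 10.9 CPM. In heart 13 of 20 libraries had no Nr5a1 count. Cyp11a1 was at 1.43 ± 0.828 CPM in neural tube and 0.867 ± 1.05 in gut, and at 0 to 3 counts in each of 16 faces. Star differed from both, because it lay between 0.860 and 4.19 CPM in all 64 libraries, neighbouring tissues in the order overlapped, and the midbrain, highest at 3.34 ± 0.643 CPM, lay wholly above heart and neural tube. The panel of levels by tissue shows these patterns, with Star as a flat row and Wt1, Tcf21 and Upk3b near the bottom in brain.

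**Figure D1:**
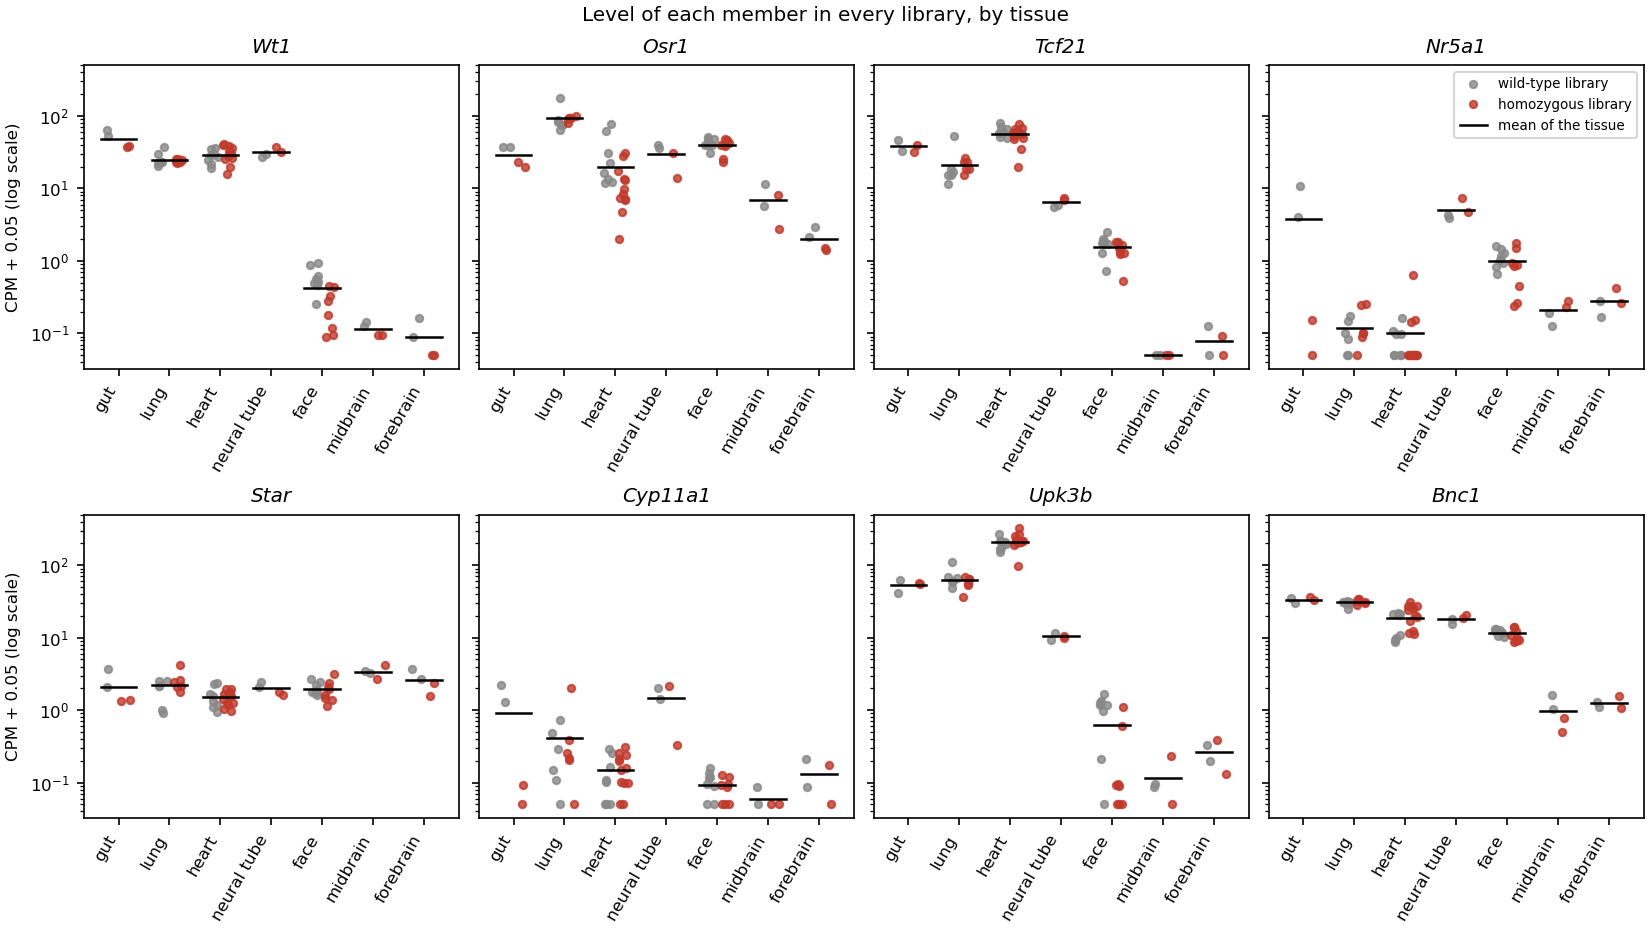
Each panel plots the level of 1 gene (CPM + 0.05, log axis) in all 64 libraries by tissue, with wild-type libraries in grey, homozygous libraries in red and the tissue mean as a line. Wt1, Tcf21 and Upk3b sit near 0 in midbrain and forebrain, and Star stays between 0.860 and 4.19 CPM in every tissue.

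Compared per length, Upk3b (median 101 TPM) and Tcf21 (61.0 TPM) led in heart, ahead of Wt1 (15.8 TPM). In gut Tcf21 (63.8 TPM) led Upk3b (44.5 TPM) and Wt1 (38.5 TPM). Osr1 led in lung (33 TPM), face (36 TPM), neural tube (31.4 TPM) and midbrain (7.20 TPM).

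Genes with the most similar pattern over the 26 group means were ranked by Pearson's r of log2 CPM among 14709 genes. This is a description, since the group means share tissues and lines. They also include both genotypes of B4 gut, the contrast the genes were picked from. Upk3b was most like Gata4 (0.987), Gata6 (0.986) and Gata5 (0.9747), Wt1 like Npr1 (0.979), Tcf21 like Slc38a4 (0.979) and Tbx5 (0.9748), and Bnc1 like Shc1 (0.964) and Aldh1a2 (0.964). Osr1 was most like Smoc2 (0.9496), Nr5a1 like Trim62 (0.905), and Cyp11a1 like Rhox9 (0.867) and Dppa3 (0.8294), a gene of primordial germ cells. Wild-type B4 guts held a mean of 1.71 CPM of Cyp11a1, their homozygous counterparts 0.0210 CPM. Dppa3 had no count in these homozygous guts. How far the likeness of Cyp11a1 to these genes rests on the B4 gut groups was not tested. Among the members themselves r was 0.94 for Wt1 and Upk3b, 0.91 for Wt1 and Tcf21, 0.90 for Tcf21 and Bnc1 and 0.89 for Tcf21 and Upk3b.

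Wild-type tissues that shared a line were then tested against each other. In wild-type B2, lung was compared with heart. Osr1 had a median of 79.5 CPM in lung (63.0 to 175, n = 6) against 12.9 in heart (11.9 to 22.5, n = 4), and the groups did not overlap. Bnc1 had 30.3 CPM in lung (24.4 to 31.8) against 9.44 in heart (8.55 to 10.9). Upk3b and Tcf21 ran the other way, with Upk3b at 63.1 CPM in lung (48.1 to 110) against 203 in heart (166 to 273), and Tcf21 at 16.02 CPM (11.6 to 52.1) against 68.1 (60.9 to 79.3). All 4 changed in edgeR's test, Osr1 by a log2 fold change of 2.66 (95% interval 1.92 to 3.39, adjusted p = 3.35e-05), Bnc1 by 1.63 (1.30 to 1.96, adjusted p = 3.03e-06), Upk3b by -1.61 (-2.11 to -1.11, adjusted p = 7.85e-05) and Tcf21 by -1.63 (-2.43 to -0.84, adjusted p = 0.00206). Wt1 and Star did not pass, with Wt1 at 0.18 (-0.25 to 0.62, adjusted p = 0.428) and Star at 0.36 (-0.46 to 1.17). So 4 of 6 members tested were called, where 64.1% of all genes were. Mitochondrial genes took 11.8 to 14.05% of the counts in 4 of these lungs, 0.362% in E5420-07 and 1.54% in E5420-09, against 2.46 to 3.14% in the 4 hearts, and the part of this in the calls was not tested. Nr5a1 and Cyp11a1 were filtered out as low.

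Genes related to the members went both ways in the same contrast. Of 20 mesothelial and epicardial genes tested 5 rose and 9 fell in lung, with Bnc2, the paralog of Bnc1, higher by 7.29 and Msln (mesothelin) and Tbx20 lower by 5.41 and 4.06 on the log2 scale. Of 15 visceral mesenchyme genes 7 rose and 5 fell, led by Tbx4 (6.44), which patterns the lung bud mesenchyme, and the cardiac factor Nkx2-5 (-9.17). Of 13 adrenal and steroidogenic genes 2 rose and 8 fell, with a list median of -1.56 against 0.08 over all genes.

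In wild-type B3 and B5, face was compared with heart, with 4 libraries each. Upk3b was at 0.827 ± 0.453 CPM in face against 188 ± 29.8 in heart, Wt1 at 0.514 ± 0.280 against 32.5 ± 3.29, and Tcf21 at 1.47 ± 0.530 against 53.9 ± 4.38. Their log2 fold changes were -7.87, -5.96 and -5.23 (adjusted p = 4.43e-08, 7.37e-08 and 2.17e-07). Bnc1 was lower by 0.92 (adjusted p = 5.20e-05). Nr5a1 was the only member higher in face, with 115 counts against 3 in heart, a ratio of 31.5 with a counting interval of 10.5 to 155 (adjusted p = 4.12e-05). Osr1 did not pass (-0.28, interval -1.13 to 0.56, adjusted p = 0.537), nor did Star (0.29, -0.34 to 0.93). Thus 5 of 7 members tested were called where 60.1% of all genes were, but Nr5a1 passed the filter through face alone, and Wt1 and Upk3b had 4 to 28 counts in each face, so the share is not read against the background. Nr0b1, which encodes a nuclear receptor that acts with Nr5a1, also rose in face (3.41), as did Foxl2 and Emx2, while Gata4 and Gata6, which are expressed in the epicardium and myocardium, fell by 10.47 and 6.51.

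In wild-type B8 the neural tube was compared with the forebrain. The neural tube libraries A34 and A36 held 26.9 and 29.7 CPM of Wt1, 39.5 and 35.6 of Osr1, 5.90 and 5.51 of Tcf21, 9.25 and 11.7 of Upk3b and 15.2 and 18.03 of Bnc1. They also held 4.18 and 3.91 CPM of Nr5a1 and 1.97 and 1.37 of Cyp11a1. The forebrain libraries A30 and A32 held 0.0396 and 0.113 CPM of Wt1 and 2.85 and 2.08 of Osr1. The genotype labels of the B8 forebrains are in doubt, but for each of the 7 genes both neural tube libraries lay above all 4 forebrain libraries of either label.

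edgeR called 33.3% of all genes in this contrast, and it called all 7 of these members higher. That count is not read against the background, because Wt1, Tcf21, Upk3b, Nr5a1 and Cyp11a1 had 0 to 7 counts in each wild-type forebrain and passed the filter through the neural tube alone. Osr1 and Bnc1 had at least 28 counts in every library. The log2 fold change was 8.44 for Wt1 (7.75 to 9.12), 5.60 for Upk3b (4.83 to 6.37), 4.52 for Nr5a1 (3.61 to 5.42), 4.05 for Cyp11a1 (2.60 to 5.50), 3.95 for Osr1 (3.51 to 4.38) and 3.87 for Bnc1 (3.39 to 4.36). Adjusted p-values of edgeR's test ran from 9.53e-06 for Wt1 to 0.00315 for Cyp11a1. Tcf21, with 241 counts against 2, had a ratio of 147 (counting interval 40.3 to 1224). Star did not pass, at -0.48 (-1.12 to 0.17, adjusted p = 0.218). The interval plot of the 3 tissue contrasts shows these values side by side.

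**Figure D2:**
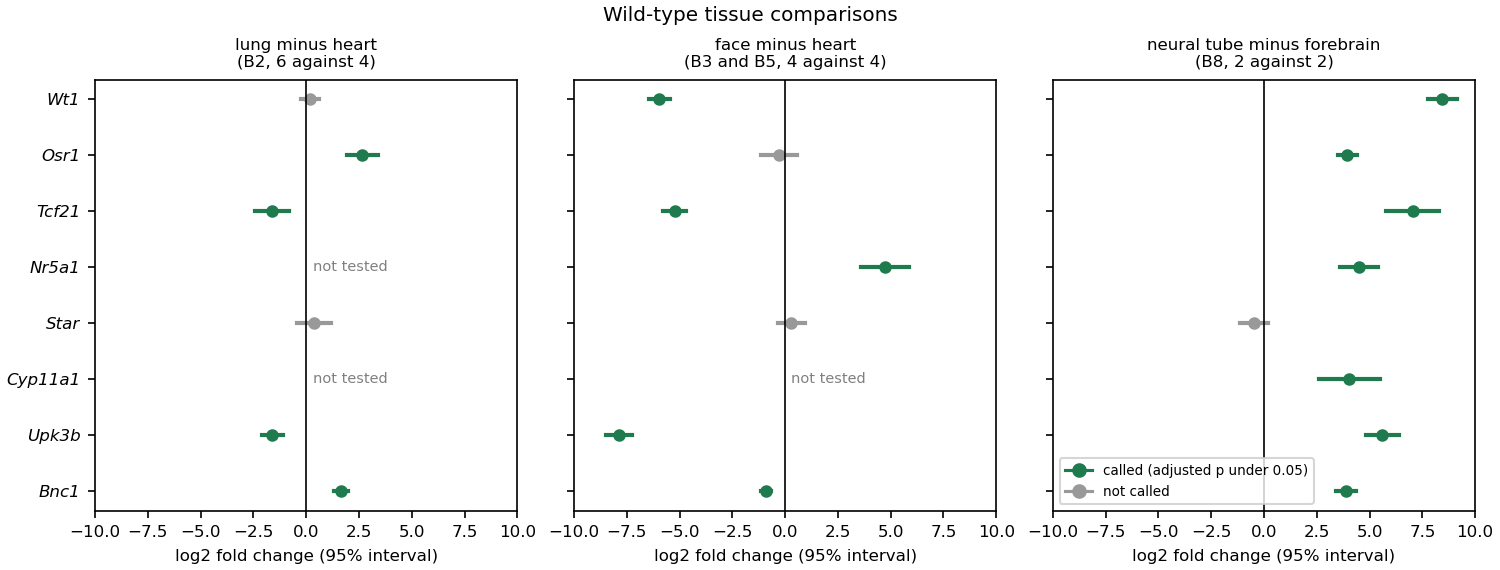
Each panel plots the log2 fold change of the members (x axis, point and 95% interval) between 2 wild-type tissues of the same lines, with called genes in green and others in grey. In neural tube against forebrain 7 of 8 members lie to the right of 0, where 33.3% of all genes were called. Of these members, Wt1, Tcf21, Upk3b, Nr5a1 and Cyp11a1 passed the filter through the neural tube alone. Lung against heart has members on both sides.

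Other lists moved in the neural tube as well. Of 15 nephric duct and metanephric mesenchyme genes tested 13 rose and 2 fell (median 3.54), of 19 mesothelial genes 11 rose and 3 fell (median 1.06), and of 14 visceral mesenchyme genes 11 rose and 1 fell (median 3.89), while the median over all genes was 0.01. Of all genes, 33.3% were called, and the list counts, the muscle list included, are not read against that share. Genes without forebrain counts, such as Mc2r and Myod1, passed the filter through the neural tube alone. Gata4 rose by 6.63, Gata6 by 5.23, Aldh1a2, the retinoic acid synthase, by 7.40, and the ACTH receptor gene Mc2r had 54 counts against 0. Skeletal muscle markers were in the same libraries, where the myogenic factor Myod1 was at 39.4 and 42.01 CPM against no count in forebrain. All 6 genes of the limb and somite muscle list, which includes Pax3, also a gene of the dorsal neural tube, rose (median 8.46; Myog by 10.65) and summed to 453 to 634 CPM over the 4 neural tube libraries, with none of the 6 at 0, against a median of 7.4 CPM in forebrain. The part that trunk tissue around the neural tube had in the members' levels was not tested.

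In B4 gut, the contrast the genes were picked from, both homozygous libraries lay below both wild-type libraries for 5 of 8 members, and for 0 members they lay above. Of 15270 genes tested 18.6% lay wholly below and 17.8% wholly above, and nothing is read from the members' count because it was the reason for choosing them. The steroidogenic members were lower by the most, Wt1 and Osr1 by less, and the other 3 overlapped.

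Nr5a1, the regulator of the adrenal and gonadal primordium, had 0 and 0.102 CPM in the homozygous guts A41 and A43 and 10.9 and 4.00 CPM in the wild-type guts A42 and A44. These were 2 counts against 340, or 0.653% of the pooled wild-type level with a counting interval of 0.0787 to 2.38%. Cyp11a1, the side-chain cleavage enzyme, had 0.0421 and 0 CPM against 2.19 and 1.23 CPM, which was 1 count against 80 (1.39%, interval 0.0347 to 7.95%). Star, which acts upstream of Cyp11a1, was at 1.30 and 1.32 CPM against 3.59 and 2.06 CPM, and its homozygous mean was 46.5% of the wild-type mean. The counting intervals do not cover the difference between the 2 wild-type guts, where A42 had more Nr5a1, Cyp11a1 and Star than A44.

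Wt1 and Osr1 were lower but well expressed. Wt1 was at 38.6 and 37.0 CPM against 64.2 and 52.6 CPM, and Osr1 at 20.02 and 23.1 CPM against 36.9 and 37.0 CPM, so that the homozygous means were 64.8% and 58.3% of the wild-type means. Tcf21, Upk3b and Bnc1 overlapped between genotypes, while Wt1, which also marks mesothelium, did not. Tcf21 was at 32.01 and 40.2 CPM against 47.3 and 33.1 CPM, Upk3b at 55.5 and 57.2 CPM against 62.7 and 40.9 CPM, and Bnc1 at 36.4 and 32.9 CPM against 29.6 and 35.1 CPM. The homozygous gut A41 read as female and the other 3 guts as male, and the male homozygous gut A43 had the low Nr5a1 of A41. The plot of the 4 gut libraries shows Nr5a1 and Cyp11a1 near 0 beside the overlap of Tcf21, Upk3b and Bnc1.

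**Figure D3:**
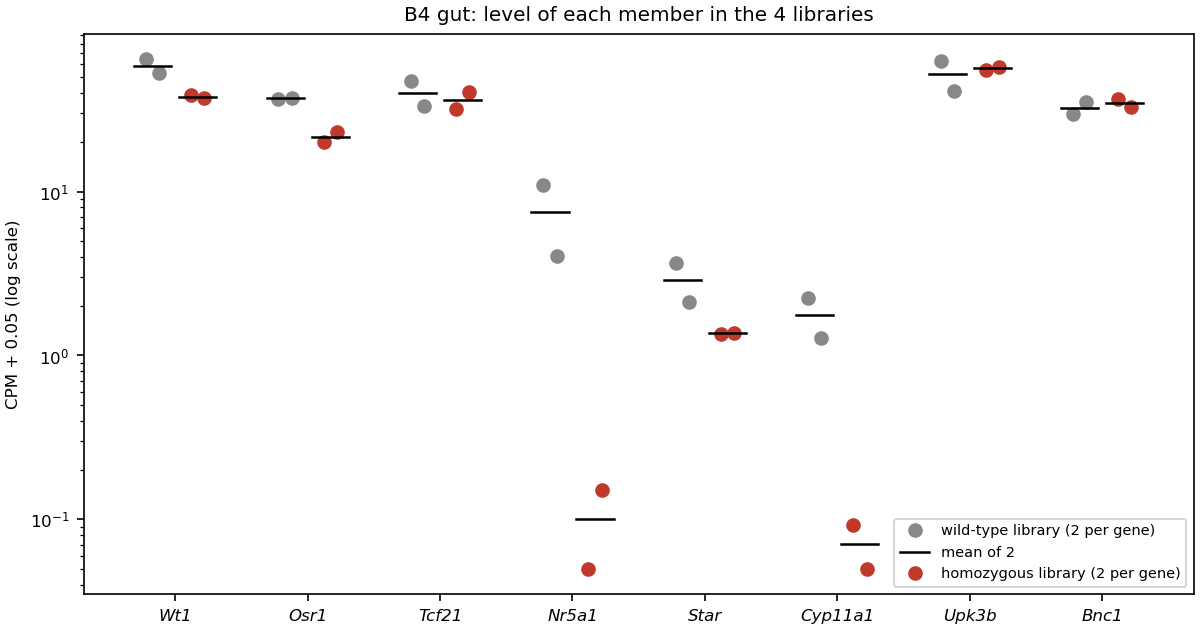
The level of each member (CPM + 0.05, log axis) is plotted for the 2 wild-type (grey) and 2 homozygous (red) B4 guts, with the mean of each pair as a line. Nr5a1 and Cyp11a1 are at or near 0 in both homozygous guts, and Tcf21, Upk3b and Bnc1 overlap.

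The genes around the members in B4 gut were described in the same way, by lists of marker genes. Lower urogenital genes in this contrast were part of the reason for the choice, so nothing is read from the list counts either. Over all genes 18.6% lay wholly below and 17.8% wholly above. Pax2, Pou5f1 and Dppa3, without a homozygous count, passed the filter through wild-type gut alone. Of 11 gonadal genes tested 7 lay wholly below and 2 above, with a median log2 fold change of -0.53. Emx2, a factor of the urogenital epithelium, was at 0 and 0.31 CPM against 7.79 and 8.63 CPM, Lhx9 of the gonadal ridge at 5.59 and 5.50 against 13.9 and 8.82, and Wnt4 at 13.7 and 13.5 against 27.6 and 18.5. Gata4 was on the other side, at 106 and 104 CPM against 74.7 and 92.6 CPM.

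Of 17 nephric genes 7 lay wholly below and 2 above, with a median of -0.54. Pax2, which marks the nephric duct, had no count in either homozygous gut against 1.87 and 0.75 CPM, at least 18.03-fold lower (floor of 3 counts over the group). Pax8 was at 0.17 and 0.05 CPM against 1.45 and 1.5, and Cdh16 at 0.21 and 0.76 against 5.23 and 2.35. Sall1 was above, at 11.4 and 8.90 CPM against 7.56 and 6.09 CPM. Of 9 germ cell genes 6 lay wholly below and 0 above, with a median of -1.04. Pou5f1 (Oct4) and Dppa3, which mark primordial germ cells, had no homozygous count against 5.51 and 3.25 CPM and 1.73 and 0.75 CPM, at least 61.6-fold and 17.1-fold lower.

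The broad adrenal and steroidogenic list had a median of -0.02 (5 of 15 below, 3 above). In it Nr0b1 was at 0.80 and 0.31 CPM against 2.19 and 0.97, and Mc2r at 0.50 and 0.71 against 1.26 and 1.46. Mesothelial genes had a median of 0.12 (4 of 20 below, 6 above) and visceral mesenchyme genes of 0.14 (2 of 17 below, 1 above). The median over all genes was 0.01, and these list counts are not read against all genes either. The plot of the marker lists places these groups on 1 axis.

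**Figure D4:**
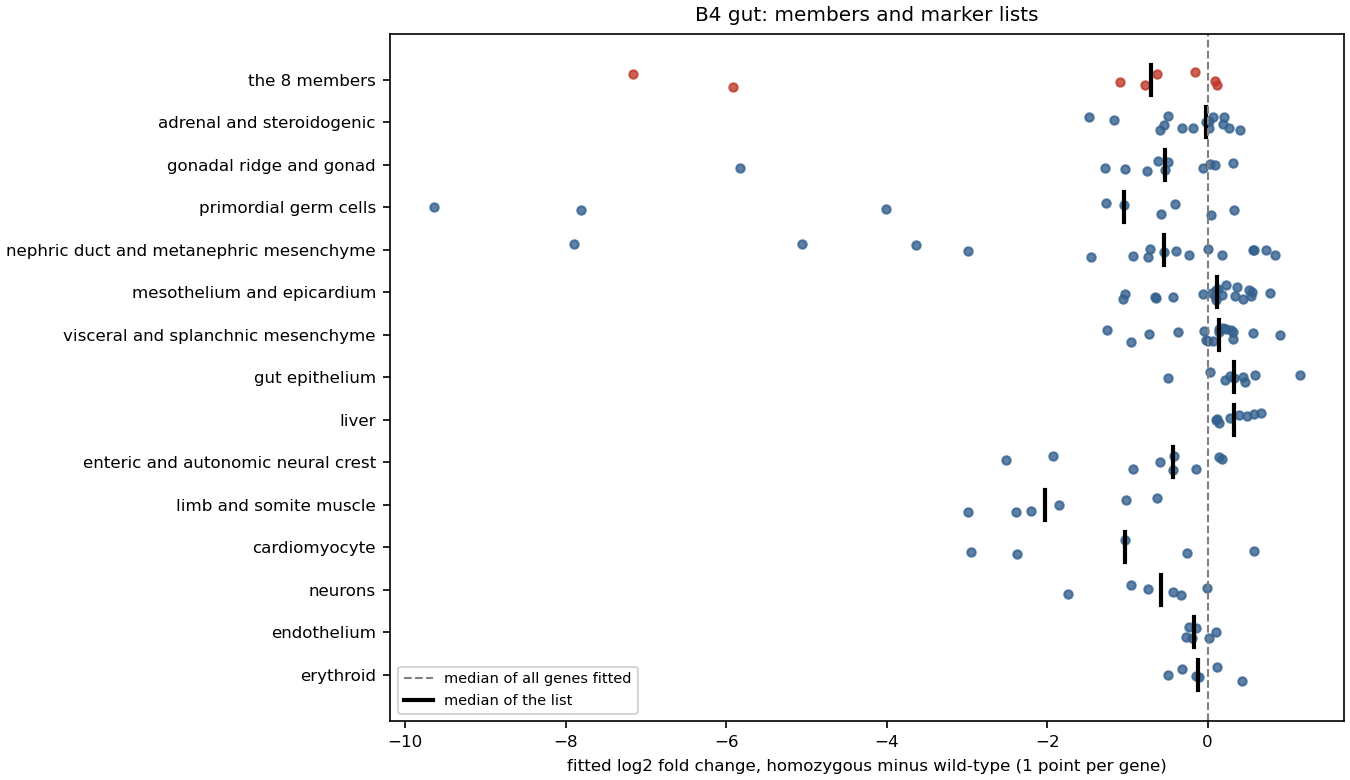
Points are genes of the 8 members (red) and of marker lists (blue) on the axis of the fitted log2 fold change, homozygous minus wild-type B4 gut, with the list median as a bar and the median of all genes as a dashed line. Gonadal, nephric, germ cell and limb muscle lists reach far to the left. The medians of the mesothelial, gut epithelial and liver lists lie right of 0, although single mesothelial genes such as Tbx18 (-1.05) and Aldh1a1 (-1.03) lie left of it.

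Markers of other tissues moved in the same 4 libraries. Of 6 limb and somite muscle genes 4 lay wholly below and 0 above (median -2.03), and their sum was 17.8 to 40.7 CPM in homozygous against 59.7 to 223 CPM in wild-type gut, with no gene at 0. Of 9 enteric and autonomic neural crest genes 4 lay below and 0 above (median -0.44), of 5 cardiomyocyte genes 3 and 0 (median -1.03), of 6 neuron genes 1 and 0 (median -0.58), of 6 endothelial genes 3 and 0 (median -0.17) and of 6 erythroid genes 0 and 0 (median -0.12). Liver genes (0 of 8 below, 3 above, median 0.33) summed to 5039 and 7320 CPM against 4586 and 4707 CPM, and gut epithelium genes (1 of 9 below, 3 above, median 0.33) to 168 and 180 against 126 and 169 CPM. How much of the body wall, mesonephros or liver each gut sample held was not measured, and its part in the members' levels was not tested.

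For the other 13 genotype comparisons the members were tested, each fit giving a homozygous-minus-wild-type fold change. Between 3 and 8 members passed the filter on low counts in a comparison. Over 77 fits 0 members were called, 11 had an unadjusted p under 0.05, and the smallest adjusted p of edgeR's test was 0.0792. Of all genes, 113 of 15109 in B5 heart (the fewest) to 2613 of 15512 in B6 heart (the most) had an unadjusted p under 0.05. The 11 are therefore not read as a result about the members. The background of calls was low as well. edgeR called 0% of all genes in B2 lung, B2 heart, B3 heart, B5 face, B5 heart, B8 forebrain, B6 heart and B7 heart, 0.0131% in B3 face, 0.00677% in B4 midbrain, 0.0723% in B6 face, 0.0329% in B7 face and 0.0132% in B8 neural tube. Effects in 2 tissues of 1 line were compared by an interaction term, which called 0 members in B2 (background 0%), in B3 (0.0311%) and in B5 (0%). An unadjusted p under 0.05 was found for 3 of the 20 member terms. Over all genes it was found for 490 of 16204 in B2, 1466 of 16069 in B3 and 215 of 16116 in B5. Nothing about the members is read from the 3. DESeq2 called Upk3b in B5 face (background 0.0844%) and in B6 face (1.06%), where its counts were nearly all in the wild-type faces. It called Osr1 in B7 face (0.547%) and in B6 heart (3.7%).

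In B2 lung, with 6 libraries per genotype, 0 of 6 members tested passed. Osr1 had a median of 94.6 CPM in homozygous lungs (80.5 to 99.1) and 79.5 in wild-type lungs (63.0 to 175), and Wt1 23.7 (22.1 to 25.6) against 23.1 (20.6 to 37.4). The intervals of the log2 fold change were -0.38 to 0.43 for Osr1, -0.36 to 0.21 for Wt1 and -0.66 to 0.60 for Tcf21. The wild-type lung E5420-07, with its low mitochondrial share, set the upper end of Osr1, Tcf21, Upk3b and Wt1. In the homozygous lung E5403-10 Cyp11a1 was at 1.98 CPM and Star at 4.10 CPM, with no Nr5a1 count.

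The 2 smallest adjusted p-values were in face. Osr1 in B7 face was at 23.3 and 25.1 CPM in homozygous and 47.8 and 39.3 CPM in wild-type embryos. The homozygous libraries were the 2 lowest of all 16 faces. Its log2 fold change of -0.85 (-1.14 to -0.56) had an adjusted p of 0.141 by edgeR and 8.68e-05 by DESeq2. With 1 library left out, the fold change ran from -0.99 to -0.71. In the other faces Osr1 ran from 30.97 to 51.1 CPM. Genes of the marker lists called in B7 face included the heart factor Tbx20 (3.40) and the embryonic globin gene Hbb-bh1 (1.12), each with an adjusted p of 0.0252 by edgeR.

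Upk3b was scarce in face, and its values in B5 and B6 did not overlap between genotypes, although neither passed edgeR's test. In B6 it was at 0.0463 and 0.0392 CPM in homozygous against 1.30 and 1.21 CPM in wild-type faces, or 2 counts against 62 (3.40%, counting interval 0.403 to 12.8%). Its adjusted p was 0.0792 by edgeR and 0.0184 by DESeq2, and its log2 fold change ran from -4.84 to -4.61 with 1 library left out. In B5 it had no count in the homozygous faces against 1.11 and 0.914 CPM, or 54 counts, at least 17.6-fold lower, with an adjusted p of 0.956 by edgeR and 0.0413 by DESeq2. In both B5 and B6, Upk3b passed the filter on low counts through the wild-type faces alone, so nothing is read from its p-values. The share of all genes without overlap between genotypes was not computed for these faces.

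Upk3b did not separate the genotypes in the other faces. It was at 0.555 and 0 CPM in homozygous against 1.12 and 0.163 CPM in wild-type B3, and at 0.0439 and 1.07 against 1.64 and 0 CPM in B7. Wt1 and Tcf21 went with Upk3b in B6 face, Wt1 at 0.278 and 0.0392 CPM against 0.576 and 0.832, and Tcf21 at 1.30 and 0.470 against 2.45 and 1.98, with adjusted p-values of 0.486 and 0.4929. Without A5 the log2 fold change of Tcf21 was -2.23, against -1.35 with all libraries. The 6 cardiomyocyte markers summed to 8.47 and 8.23 CPM in the homozygous and 19.4 and 24.8 CPM in the wild-type B6 faces, but to 18.8 and 13.7 against 8.91 and 19.3 CPM in B5. Whether traces of heart or pericardium carried Upk3b into these faces was not tested.

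In B8 neural tube Osr1 was at 14.03 and 30.4 CPM in homozygous against 39.5 and 35.6 CPM in wild-type libraries, with a log2 fold change of -0.76 (-1.41 to -0.10, adjusted p = 0.471). Without the homozygous library A35 it was -1.42. The low library A33 also had the least Cyp11a1, at 0.281 CPM against 1.37 to 2.10 CPM in the other 3, and yet the most Nr5a1, at 7.40 CPM against 3.91 to 4.63 CPM. Thus Nr5a1 and Cyp11a1, which were low together in B4 gut, were not so in this library. In B4 midbrain 3 members were tested, and Bnc1 was at 0.455 and 0.736 CPM against 1.55 and 0.992 CPM (-1.06, adjusted p = 0.671). In B8 forebrain 3 members were tested, and Osr1 was at 1.37 and 1.43 CPM in the libraries labelled homozygous against 2.85 and 2.08 CPM in those labelled wild-type (-0.82, interval -1.64 to 0.01, adjusted p = 0.826). It is uncertain which 2 of these 4 forebrains carry the deletion, because the labels and the study's own account of this tissue do not point the same way, so no direction is read from them.

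Osr1 varied widely between hearts of both genotypes. The highest were the wild-type hearts A24 of B5 and A16 of B3, at 77.1 and 62.6 CPM, and the lowest was the homozygous B2 heart A58 at 1.97 CPM. A24 and A16 also held 79.8 and 72.4 CPM of Foxf1, a gene of foregut and lung mesenchyme, and 138 and 115 CPM of gut epithelium markers, with the least cardiomyocyte RNA among wild-type hearts (8427 and 7881 CPM). The homozygous B5 heart A21, next in Osr1 at 31.1 CPM, had the most gut epithelium markers (170 CPM), and A58 had them at 71.8 CPM with Foxf1 at 1.73 CPM. These markers are not particular to gut, with a median sum of 321 CPM in midbrain and 306 in forebrain against 168 in gut. A21 also held 519 CPM of neuron markers, and which tissue its gut epithelium markers came from was not tested. The remaining 17 hearts ran from 4.75 to 31.1 CPM. Over the 20 hearts Osr1 had an r of 0.555 with the summed gut epithelium markers (0.400 in 18 hearts, without the 2 most extreme sums). With the sum of the visceral mesenchyme list, which holds Foxf1 and also cardiac genes such as Nkx2-5, r was -0.337. That sum had a median of 2615 CPM in heart against 649 in gut and 670 in lung, so nothing about foregut mesenchyme is read from it.

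In B3 heart Osr1 was at 13.6 and 12.9 CPM in homozygous against 16.5 and 62.6 CPM in wild-type libraries (-1.55, adjusted p = 0.524). Without the wild-type heart A14, which leaves A16 alone, the log2 fold change was -2.20. In B6 heart Osr1 was at 7.13 and 4.75 CPM (-2.37, adjusted p = 0.231) and in B7 heart at 6.80 and 17.2 CPM (-1.38, adjusted p = 0.506). The part of foregut or lung tissue in the Osr1 level of these hearts was not tested.

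In B5 heart the 2 homozygous libraries stood on opposite sides of the wild-type pair. A21 was at 15.9 CPM for Wt1, 19.5 for Tcf21 and 97.7 for Upk3b, and A22 at 40.7, 67.3 and 323 CPM. The wild-type hearts A23 and A24 were at 35.9 and 34.7 CPM for Wt1, 57.5 and 57.6 for Tcf21 and 213 and 213 for Upk3b. A21 is the heart with high neuron markers, and A22 had among the least (18.9 CPM). With A21 alone as the homozygous library, the log2 fold changes of the 3 genes were -1.19, -1.60 and -1.16. With A22 alone they were 0.21, 0.23 and 0.61, so no direction is given for B5 heart.

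Bnc1 differed between lines among the wild-type hearts, without overlap. The wild-type hearts of B2 were at 8.55 to 10.9 CPM and those of B3 and B5 at 20.4 to 21.8 CPM. Homozygous hearts were at 11.4 to 17.2 CPM in B2, 24.3 and 27.5 in B6 and 27.3 and 30.7 in B7. Within B2 all 4 homozygous hearts lay above all 4 wild-type hearts, with a log2 fold change of 0.47 (0.13 to 0.82) and an adjusted p of 0.867. Against the wild-type hearts of 3 lines, the B6 hearts were higher by 0.75 (adjusted p = 0.310) and the B7 hearts by 0.90 (adjusted p = 0.506), neither of which passed. Against the B2 hearts alone these values were 1.45 and 1.59 and both passed. In these 2 contrasts edgeR called 8640 of 14885 and 8561 of 14894 genes, so passing was not particular to Bnc1. The wild-type hearts of B2 themselves lay below those of B3 and B5. The plot of the 20 hearts shows the line of each.

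**Figure D5:**
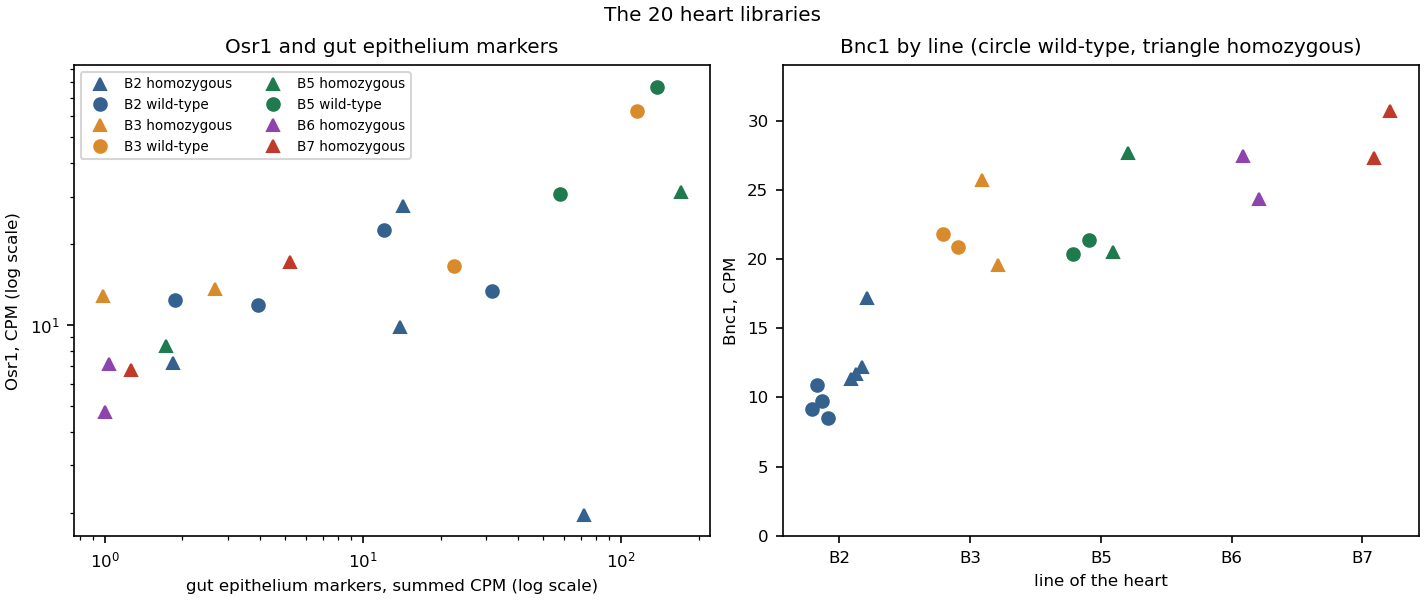
The left panel plots Osr1 (CPM, log axis) against the summed gut epithelium markers (CPM, log axis) in the 20 hearts, and the right panel plots Bnc1 (CPM, linear axis) by line, with circles for wild-type and triangles for homozygous hearts. The wild-type hearts A16 and A24 are at the upper right on the left, and the B2 hearts lie below those of the other lines on the right.

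Within the hearts, the gene most like Upk3b was Tm4sf5 (r = 0.917 over 20 libraries), the gene most like Tcf21 was Mxra8 (0.896) and that most like Bnc1 was Elf1 (0.964). Wt1 was most like Fads6 (0.867) and the mesothelial gene Lrrn4 (0.860). Upk3b and Tcf21 had an r of 0.76 and Wt1 and Bnc1 of 0.68, across libraries that share lines.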

How the data were processed

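RNA-seq libraries were sequenced by the authors as paired reads, mapped to mm10 with STAR and counted per gencode M4 gene with RSEM under the ENCODE long RNA pipeline; the kit and strand setting are not given in the sources used here. For each library the authors deposited expected counts, which are not normalized, and TPM, scaled to the same sum per library. Hi-C of 23 samples and FPKM were not used here. Rows other than Ensembl genes, at most 2.19e-05% of a library's counts, were left out.

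Expected counts were rounded. Groups came from the labels by line, tissue and genotype. Each of 19 comparisons was fitted on all genes with edgeR 4.0.16 in R 4.3.3 (filterByExpr, TMM, glmQLFit, glmQLFTest, all tests two-sided), with Benjamini-Hochberg adjustment and a threshold of 0.05; the procedure was tested on simulated data. Counting intervals are exact at 95%, floors are 3 counts, and both cover counting error only. Fold changes of groups with few counts depend on edgeR's prior. Names and positions came from GENCODE M21, which named 42462 of 43346 genes, and promoters from RefSeq. Every result was recomputed with RLE factors, with DESeq2 1.42.0, without the filter, by a joint fit, without each library in turn, with sex or the code that several lungs of both genotypes share (E5403, E5406 or E5420), without the lungs E5420-07 and E5420-09, with other control hearts and in TPM, where each applied.

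The members, the 15 marker lists and the tests were chosen with earlier results of these data known. Named genes are the members, up to 4 genes per list and contrast with the largest changes, and the genes most like each member. Not every gene named by this rule is reported here.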

Additional observations from a re-analysis of the deposited data

Results flagged for a closer look

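In 9 of 32 tests, 8 genes in each of 4 groups of 4 or 6 B2 libraries, 1 library stood far from the others by Dixon's test, which flags about 1 test in 20 by chance, and several of these flags fall on the same libraries. In the wild-type B2 lungs, E5420-07 was at 175 CPM for Osr1 (the others 63.0 to 87.9), 52.1 for Tcf21 (11.6 to 18.3) and 110 for Upk3b (48.1 to 69.8). In the homozygous B2 lungs, E5403-10, which reads as both sexes, was at 1.98 CPM for Cyp11a1 (the others 0 to 0.336) and 4.10 for Star (1.74 to 2.55). In the B2 hearts, Osr1 was at 22.5 CPM in wild-type A56 (11.9 to 13.4) and Bnc1 at 17.2 CPM in homozygous A58 (11.4 to 12.2). Nr5a1 was at 0.102 CPM in homozygous A53 and 0.113 CPM in wild-type A56 where the other hearts of each group had no count, which is at the level of single reads. With all others at 0 any count is flagged, so the rate of 1 in 20 does not hold for these Nr5a1 flags.

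The homozygous-minus-wild-type difference of Nr5a1 was -7.38 CPM in B4 gut, with both homozygous libraries lower, and both were higher in B4 midbrain, at 2 to 5 counts per library; the difference between tissues was not tested. For Wt1 the difference was 6.05 CPM in B8 neural tube, with both homozygous libraries higher, and the forebrains labelled homozygous were both lower, where no library had more than 3 counts and the genotype labels are in doubt; this was not tested either.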

How the results depend on the processing

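edgeR called no member in the 13 genotype comparisons or the 3 interaction terms, and this count of 0 moved as follows. DESeq2 called 1 in B5 face (16 of 18955 genes), 1 in B6 face (159 of 14993) and 1 in B7 face (89 of 16277). It also called 1 in B6 heart (542 of 14667) and 1 in the B5 interaction (6 of 22743). Without the filter on low counts 2 were called in B6 face (621 of 21212 genes), 1 in B7 face (442 of 21372) and 1 in B8 neural tube (665 of 21245). The joint fit called 2 in B6 heart (3763 of 18339 genes) and 1 in B7 heart (2973 of 18339). The B2 hearts alone as controls gave 3 (8640 of 14885 genes) and 2 (8561 of 14894). The B5 hearts alone gave 1 (2165 of 14738 genes) and 1 (806 of 14814). These counts are not read as particular to the members. Leaving out 1 library also moved the count in B3 and B5 heart, in B5, B6 and B7 face and in B8 neural tube. It moved in the B3 interaction (Osr1 without A14) and the B5 interaction (Upk3b without A21 or A22) too. Each of these fits leaves a lone library in a group, which is assumed to vary like the others. Calls from such fits are therefore not counted or read here. The cause was not tested.

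Leaving out 1 library moved the log2 fold changes of B5 heart from -1.19 to 0.21 for Wt1, from -1.16 to 0.61 for Upk3b and from -1.60 to 0.23 for Tcf21, with the positive values without the homozygous library A21, and that of Osr1 in face against heart from -0.58 to 0.10, where it was positive without the wild-type heart A16 (0.10) or A24 (0.05). Wt1 in lung against heart turned to -0.019 without E5420-07 and E5420-09. None of the reversed values was called. Of 238 alternatives for the tissue fold changes 235 kept direction and call, and 3 reversed. Among 148 alternatives for the genotype fold changes 116 kept both, and 3 reversed. No paired analysis was possible because the labels share no replicate number; with the code that several B2 lungs of both genotypes share (E5403, E5406 or E5420) in the model, 0 members were called there. Groups of 2 libraries, and the few counts of Nr5a1, Cyp11a1 and Upk3b in many tissues, limit the precision of these differences.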
